A study of Mus musculus with 12 samples.

Results

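Zscan4c, Tcstv1, Tcstv3 and Usp17la are genes of the mouse 2-cell embryo, and the 8 array probes that read them are described here in embryonic stem (ES) cells without Dicer. They are 4 of 15540 named genes with a tested probe, and their probes, found by the gene name on the array or by its transcript accession, are 8 of the 41174 distinct probes that are not controls. The array carried 2 probes for Zscan4c (under its older name Gm397), 3 for Tcstv1, 2 for Tcstv3 and 1 for Usp17la (under its older name Dub1). All 8 were among the 28818 probes tested, and each stood well above background in both channels of all 12 arrays. The 4 genes were selected on their higher signal in Dicer-null than in wild-type cells, so that comparison is a description here and carries no test.

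Zscan4 proteins carry a SCAN domain and zinc fingers, are made at the late 2-cell stage, and appear in passing in a small share of cultured ES cells, where they have been tied to telomere lengthening by recombination. Tcstv1 and Tcstv3 encode small proteins of a 2-cell-stage family that have likewise been tied to telomere length in ES cells. Usp17la encodes a ubiquitin-removing enzyme of a family of near-identical copies. Dicer is the nuclease that cuts microRNAs from their precursors, and Dnmt1, Dnmt3a and Dnmt3b are the enzymes that methylate DNA.

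The labels describe 7 mouse ES cell RNAs. For each of 2 Dicer1-null clones, 27G5 and 27H10, there was RNA of cells overexpressing Dnmt1, RNA of cells overexpressing Dnmt3a,3b, and RNA of the Dicer1-null cells themselves; 1 RNA came from wild-type ES cells. All grew on gelatin with leukemia inhibitory factor, and the Dicer1 deletion is shared by every RNA except the wild-type one. Every pairing of 2 RNAs went onto a pair of arrays with the dyes exchanged, so the 12 arrays gave 6 ratios, 1 per clone in each of 3 comparisons: Dicer-null over wild type, Dnmt1-labelled over Dicer-null, and Dnmt3a,3b-labelled over Dicer-null. Replication is therefore 2 clones. The labels name no separate cultures and do not say which promoter drove Dnmt or whether an overexpressing line was 1 clone; p measures the spread between these samples and leaves out that of the single wild-type RNA.

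Dicer1 checked the labels of the null cells: its probe A_51_P333060 had a log2 ratio of -4.13 in 27G5 and -4.02 in 27H10 cells over wild type (adjusted p = 3.05e-05, limma), and its other probe fell by 0.53. The first probe was well above background in Dicer-null RNA on the 4 arrays of this comparison and not on the 8 others. Dnmt1 signal did not pass the test in the Dnmt1-labelled cells (log2 ratio 0.10 and 0.43, adjusted p = 0.109), Dnmt3b fell by 1.04 in the Dnmt3a,3b-labelled cells (adjusted p = 0.0306), and none of 3 Dnmt3a probes rose there. Whether these probes read the introduced copies is not given in the sources used here, so these cells are called Dnmt1-labelled and Dnmt3a,3b-labelled throughout. Median signal per array was 112.4 to 135.1 in green and 233.6 to 333.5 in red. The overexpression arrays of 27G5 lay on 1 slide and those of 27H10 on another, so slide and clone cannot be told apart there; the arrays with wild-type RNA shared a slide of their own and another scan day.

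The probe sequences are shown because several copies of each family exist and because the Tcstv probes overlap. Capitals mark the 25 bases that a Tcstv1 probe shares with a Tcstv3 probe, with 1 base different.
Zscan4c A_52_P302671: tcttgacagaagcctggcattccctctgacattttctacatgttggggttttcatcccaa
Zscan4c A_52_P363843: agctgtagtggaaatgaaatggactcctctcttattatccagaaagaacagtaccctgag
Tcstv1 A_51_P481768: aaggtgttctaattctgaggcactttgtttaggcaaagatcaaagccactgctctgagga
Tcstv1 A_51_P481777: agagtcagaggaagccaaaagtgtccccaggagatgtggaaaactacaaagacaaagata
Tcstv1 A_52_P66425: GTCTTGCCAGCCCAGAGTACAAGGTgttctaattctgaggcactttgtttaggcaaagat
Tcstv3 A_51_P143200: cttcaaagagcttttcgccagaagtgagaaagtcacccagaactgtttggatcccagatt
Tcstv3 A_52_P165856: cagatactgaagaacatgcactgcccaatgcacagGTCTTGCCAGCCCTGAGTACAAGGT
Usp17la A_51_P302273: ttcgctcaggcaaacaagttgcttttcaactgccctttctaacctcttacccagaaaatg

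The Tcstv1 probes A_51_P481768 and A_52_P66425 also share 40 bases without a mismatch, so the 5 Tcstv probes are not independent readings. The files place the Zscan4c probes on mm7 at chr7:9713271-9713330 and chr7:9711998-9712057, plus strand, and the Usp17la probe at chr7:100918944-100919002. The Tcstv probes are placed on the minus strand of unassigned sequence, at chrUn_random:304720-304779, chrUn_random:918057-918116 and chrUn_random:304741-304799 for Tcstv1, and at chrUn_random:917863-917922 and chrUn_random:304775-304834 for Tcstv3. Each of those 2 stretches thus holds probes of both Tcstv genes. The files do not say in which exon or untranslated region a probe lies.

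RefSeq (GRCm38.p6) lists 9 Zscan4 genes and pseudogenes on chromosome 7, of which only Zscan4c had a probe on the array, 6 Usp17l entries on chromosome 7, and both Tcstv genes on chromosome 13. Its promoter table held Zscan4c and Usp17la among the 4 genes, and Zscan4d, Zscan4f and Usp17lb among their relatives. Over the aligned bases, the Zscan4c promoter was 97.2% identical to that of Zscan4d and 99.3% to that of Zscan4f, and the Usp17la promoter was 92.2% identical to that of Usp17lb. Which of the other copies a probe also reads was not tested. The Zscan4c promoter, from 250 bases before to 50 after the gene start at chr7:11005495-11005794 on the plus strand, is shown since relatives have nearly the same sequence. Capitals mark the letters TATAAA, the core of a TATA box, which begin at -54 from the gene start. Whether they work as a TATA box was not tested.
Zscan4c promoter: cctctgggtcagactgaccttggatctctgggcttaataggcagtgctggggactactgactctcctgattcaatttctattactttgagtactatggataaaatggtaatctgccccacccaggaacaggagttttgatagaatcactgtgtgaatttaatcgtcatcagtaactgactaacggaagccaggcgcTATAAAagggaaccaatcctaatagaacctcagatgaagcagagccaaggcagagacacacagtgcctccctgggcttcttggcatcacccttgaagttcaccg

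TATAAA, searched on both strands, was found in the promoters of Zscan4c, Zscan4d, Zscan4f and Usp17lb and not in that of Usp17la; 13.6% of 32851 promoters hold it. TGCACAC, a repeat bound by Zscan4 proteins, was in none of these 5 windows and in 4.4% of all.

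Zscan4c had the highest ratios of the 4 genes in Dicer-null over wild-type cells. Its probe A_52_P302671 gave log2 ratios of 3.29 and 3.64 on the arrays of 27G5 and 3.00 and 3.37 on those of 27H10, a mean of 3.32 ± 0.20 (SD, n = 2 clones) or 10.01-fold. Its probe A_52_P363843 gave 2.74 and 3.38 in 27G5 and 3.00 and 3.12 in 27H10, a mean of 3.06 or 8.33-fold. The clones overlapped on both probes.

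The deubiquitinase Usp17la gave log2 ratios of 2.52 and 3.22 on the 27G5 arrays and 2.32 and 2.72 on the 27H10 arrays. Its mean of 2.69 ± 0.25 (SD, n = 2 clones) corresponds to 6.47-fold higher signal in Dicer-null than in wild-type cells.

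Among the Tcstv probes, A_51_P481777 of Tcstv1 gave the highest ratios over wild type, at 2.36 and 2.48 in 27G5 and 2.12 and 2.05 in 27H10, a mean of 2.25 ± 0.24 (SD, n = 2 clones). The other Tcstv1 probes had means of 1.34 ± 0.24 (A_51_P481768) and 1.88 ± 0.27 (A_52_P66425), and the Tcstv3 probes 1.75 ± 0.30 (A_51_P143200) and 1.96 ± 0.28 (A_52_P165856). All 5 were higher in 27G5 than in 27H10 cells, without overlap between the arrays of the clones, as held for 37.0% of all tested probes in either direction and for 19.4% with 27G5 higher. All 8 probes were above 0 on all 4 arrays, where 20.0% of all tested probes were called higher and 19.8% lower; since the members were chosen by this comparison, nothing is read from that count. In bulk RNA, fewer cells of a type and less RNA per cell cannot be told apart.

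**Figure D1:**
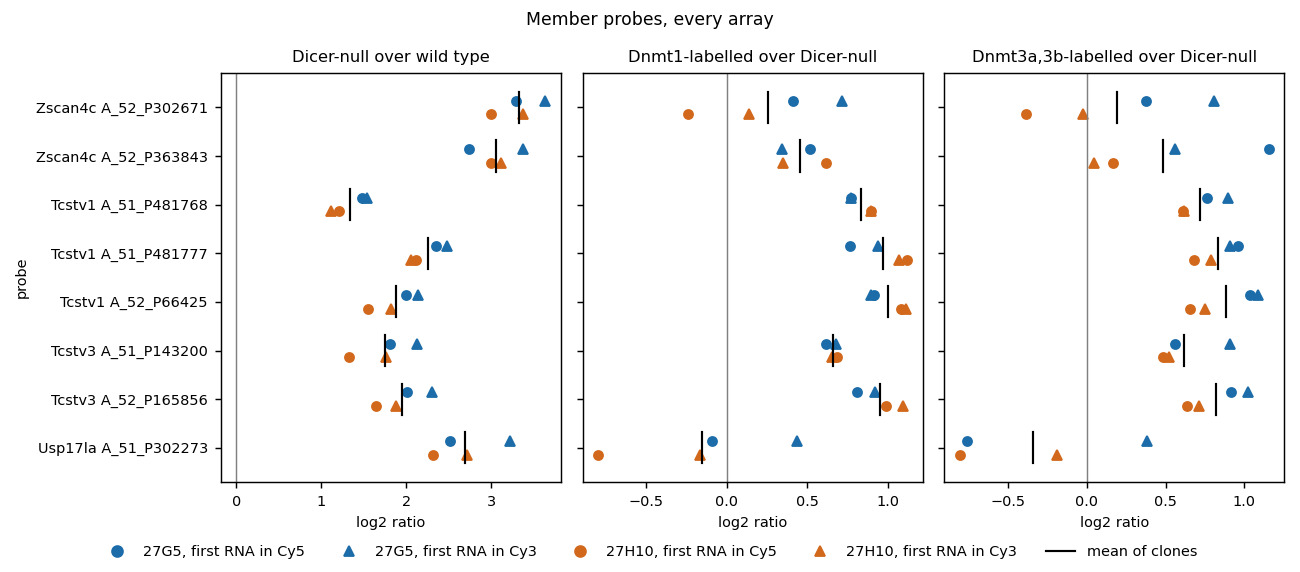
Log2 ratio (x axis) of each member probe (y axis) on every array, by comparison; circles have the first-named RNA in Cy5 and triangles in Cy3, colours mark the clones and black bars the mean of the clones. All points of the left panel lie above 0, while in the other panels the 5 Tcstv probes lie above 0 on every array and the Usp17la probe on 1 of 4.

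The spread among the Tcstv probes over wild type moved with the way the ratio was made. The values above carry an offset of 50 signal units on every spot, which pulls ratios of dim spots towards 0. With the ratio of the scanner software, which has no such offset, the 5 Tcstv probes gave 2.36 to 2.76 in place of 1.34 to 2.25, or 5.14-fold to 6.77-fold in place of 2.53-fold to 4.76-fold. The dimmest, Tcstv1 A_51_P481768, moved most, to 2.40. An offset of 16 gave 1.74 to 2.39. The Zscan4c probes changed little, to 3.26 for A_52_P363843 with the software's ratio.

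**Figure D2:**
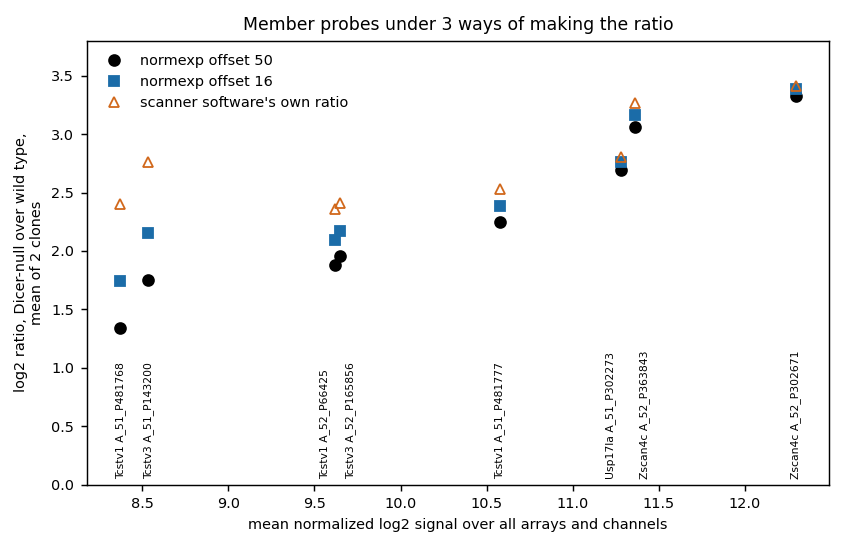
Mean log2 ratio of Dicer-null over wild type (y axis) of each member probe against its mean log2 signal (x axis, a property of the spot and not of the gene's RNA), under 3 ways of making the ratio. The dimmest probe lies at 1.34 with offset 50 and at 2.40 with the scanner software's ratio, while Zscan4c A_52_P302671 lies between 3.32 and 3.42 in all 3.

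The rule did not use the comparisons of the Dnmt-labelled cells with their Dicer-null parents. The Tcstv probes were higher in Dnmt1-labelled than in Dicer-null cells on every array. Tcstv1 A_51_P481777 gave 0.76 and 0.94 in 27G5 and 1.12 and 1.07 in 27H10, a mean of 0.97 ± 0.17 or 1.96-fold (SD, n = 2 clones; adjusted p = 0.00577, limma). Tcstv1 A_52_P66425 gave 0.92 and 0.90 in 27G5 and 1.08 and 1.11 in 27H10, a mean of 1.00 or 2.00-fold (limma adjusted p = 0.00756). The 27H10 arrays were the higher ones for both probes, without overlap.

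Tcstv1 A_51_P481768, which shares most of its bases with A_52_P66425, rose by 0.83 ± 0.09 (limma adjusted p = 0.00738). Tcstv3 A_52_P165856 gave 0.81 and 0.92 in 27G5 and 0.99 and 1.09 in 27H10, a mean of 0.95 or 1.94-fold (limma adjusted p = 0.00753). Tcstv3 A_51_P143200 lay between 0.62 and 0.68 on all 4 arrays (limma adjusted p = 0.0170).

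Zscan4c did not pass the test in Dnmt1-labelled cells. Probe A_52_P302671 gave 0.41 and 0.72 in 27G5 and -0.24 and 0.14 in 27H10 (mean 0.26 ± 0.43, adjusted p = 0.458 in limma), so the clones did not overlap. Probe A_52_P363843 was above 0 on all 4 arrays, at 0.52 and 0.34 in 27G5 and 0.62 and 0.35 in 27H10 (mean 0.46 ± 0.04, adjusted p = 0.108 in limma), with an unadjusted 95% interval of 0.04 to 0.88. Usp17la gave -0.09 and 0.44 in 27G5 and -0.80 and -0.17 in 27H10 (mean -0.15 ± 0.46, adjusted p = 0.583 in limma). Its unadjusted 95% interval was -0.60 to 0.29. Whether the Tcstv probes differ from the Zscan4c and Usp17la probes in this response was not tested.

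In Dnmt3a,3b-labelled cells the Tcstv probes again lay above their Dicer-null parents on every array. Tcstv1 A_51_P481777 gave 0.96 and 0.91 in 27G5 and 0.68 and 0.79 in 27H10, a mean of 0.84 ± 0.14 or 1.78-fold (SD, n = 2 clones; adjusted p = 0.00851, limma). Tcstv1 A_52_P66425 gave 1.04 and 1.09 in 27G5 and 0.65 and 0.75 in 27H10, a mean of 0.88 or 1.84-fold (limma adjusted p = 0.0105). In contrast to the Dnmt1-labelled cells, the 27G5 arrays were the higher ones for both.

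Tcstv1 A_51_P481768 rose by 0.72 ± 0.15 (limma adjusted p = 0.0109). Tcstv3 A_52_P165856 gave 0.91 and 1.03 in 27G5 and 0.63 and 0.71 in 27H10, a mean of 0.82 or 1.77-fold (limma adjusted p = 0.0112). Tcstv3 A_51_P143200 rose by 0.62 ± 0.17 (limma adjusted p = 0.0203).

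Zscan4c differed most between the clones in the Dnmt3a,3b-labelled cells. Probe A_52_P302671 gave 0.38 and 0.81 in 27G5 and -0.38 and -0.03 in 27H10 (mean 0.19 ± 0.56, adjusted p = 0.578 in limma). Probe A_52_P363843 gave 1.16 and 0.56 in 27G5 and 0.16 and 0.05 in 27H10 (mean 0.48 ± 0.53, adjusted p = 0.0961 in limma). Both probes were thus higher in 27G5, without overlap of the arrays. Usp17la gave -0.76 and 0.38 on the dye-swapped arrays of 27G5, and -0.81 and -0.19 on those of 27H10 (mean -0.34 ± 0.22, adjusted p = 0.219 in limma). For Usp17la the array with the first-named RNA in Cy3 was the higher of the pair in both clones of all 3 comparisons. The gap ran from 0.40 to 1.15, the largest being this 27G5 pair, so it is not particular to the Dnmt3a,3b-labelled cells. Zscan4c A_52_P302671 had the same order in every pair, by 0.31 to 0.43.

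In each Dnmt comparison 5 of 8 member probes rose, all of Tcstv, and 0 fell. Of all tested probes, 11.6% were called higher and 11.2% lower in Dnmt1-labelled cells, and 10.8% higher and 11.2% lower in Dnmt3a,3b-labelled cells. The median over the 8 probes was 0.75 and 0.67 in these comparisons, against 0.00 and 0.01 over all probes tested. Both comparisons are set against the same Dicer-null RNAs, so their likeness is not independent. When the covariance that shared RNAs give was modelled, 0 of 8 member probes passed in either comparison (adjusted p = 0.0795 to 0.286 for the Tcstv probes in limma), and the calls over all probes dropped to 707 in Dnmt1-labelled and 586 in Dnmt3a,3b-labelled cells. With a clone left out, each comparison rests on 1 ratio, so only sizes are given here. In Dnmt3a,3b-labelled cells the lowest log2 ratio of the 5 Tcstv probes was 0.50 without 27G5 and 0.74 without 27H10. In Dnmt1-labelled cells it was 0.67 without 27G5 and 0.65 without 27H10.

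Between the Dnmt lines, 0 of 8 member probes differed in limma, and 0 of 28818 probes in all (0%); 0 of the 8 had an unadjusted p under 0.05. For Tcstv1 A_51_P481777 the difference, Dnmt3a,3b-labelled minus Dnmt1-labelled, was 0.08 in 27G5 and -0.36 in 27H10 (unadjusted 95% interval -0.54 to 0.27). For Zscan4c A_52_P363843 it was 0.43 in 27G5 and -0.38 in 27H10 (unadjusted 95% interval -0.57 to 0.62). A miss of the threshold with 2 clones does not show that the lines act alike.

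The clones differed within each line. In Dnmt1-labelled cells the 5 Tcstv probes had the larger ratio in 27H10, by 0.02 to 0.24, and in Dnmt3a,3b-labelled cells in 27G5, by 0.20 to 0.36. Zscan4c A_52_P302671 and Usp17la had the larger ratio in 27G5 in both lines. The arrays of the clones did not overlap for 6 of 8 member probes in Dnmt1-labelled cells, against 52.3% of all tested probes, and for 7 of 8 in Dnmt3a,3b-labelled cells, against 27.9%. With 1 ratio per clone and line these differences were not tested, and here clone and slide cannot be told apart.

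Signals in the separate channels gave the order of the 7 RNAs for each probe. Wild type was the lowest for all 8 probes and overlapped with no other RNA. The members were chosen for a higher signal in Dicer-null than in wild-type cells, so nothing is read from the low place of wild type. The arrays with wild-type RNA also had a slide and scan day of their own. Tcstv1 A_51_P481777 had a log2 signal of 11.74 ± 0.01 in Dnmt1-labelled 27G5 and 11.59 ± 0.01 in Dnmt1-labelled 27H10 cells (SD over 2 arrays each). It had 11.78 ± 0.02 in Dnmt3a,3b-labelled 27G5 and 11.16 ± 0.10 in Dnmt3a,3b-labelled 27H10 cells, against 10.85 ± 0.08 in Dicer-null 27G5, 10.46 ± 0.05 in Dicer-null 27H10 (SD over 6 arrays each) and 8.39 ± 0.03 in wild-type cells (SD over 4 arrays). No neighbours in that order overlapped, and the other Tcstv probes had the same order of means, with neighbours that overlapped for Tcstv1 A_51_P481768 and Tcstv3 A_51_P143200.

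Zscan4c A_52_P363843 was likewise higher in both Dnmt-labelled lines than in the Dicer-null parent of each clone, at 12.60 in Dnmt3a,3b-labelled and 12.16 in Dnmt1-labelled 27G5 cells against 11.83 in Dicer-null 27G5 cells. In 27H10 it had 11.68 in Dnmt3a,3b-labelled and 12.08 in Dnmt1-labelled cells against 11.62 in Dicer-null cells, where the first overlapped with the parent, and it had 8.78 ± 0.32 in wild-type cells. Zscan4c A_52_P302671 was highest in Dnmt3a,3b-labelled and Dnmt1-labelled 27G5 cells, at 13.39 and 13.37, which overlapped with each other. Its next values were 12.86 in Dicer-null 27G5, 12.69 in Dicer-null 27H10, 12.65 in Dnmt1-labelled 27H10 and 12.47 in Dnmt3a,3b-labelled 27H10 cells, each overlapping with its neighbour, and 9.52 ± 0.12 in wild-type cells. Usp17la was highest in Dnmt1-labelled 27G5 cells at 12.01, next to Dicer-null 27G5 at 11.95, Dnmt3a,3b-labelled 27G5 at 11.70 and Dicer-null 27H10 at 11.69, which overlapped in turn. It had 11.18 in Dnmt1-labelled and 11.17 in Dnmt3a,3b-labelled 27H10 cells, against 9.23 ± 0.17 in wild-type cells.

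**Figure D3:**
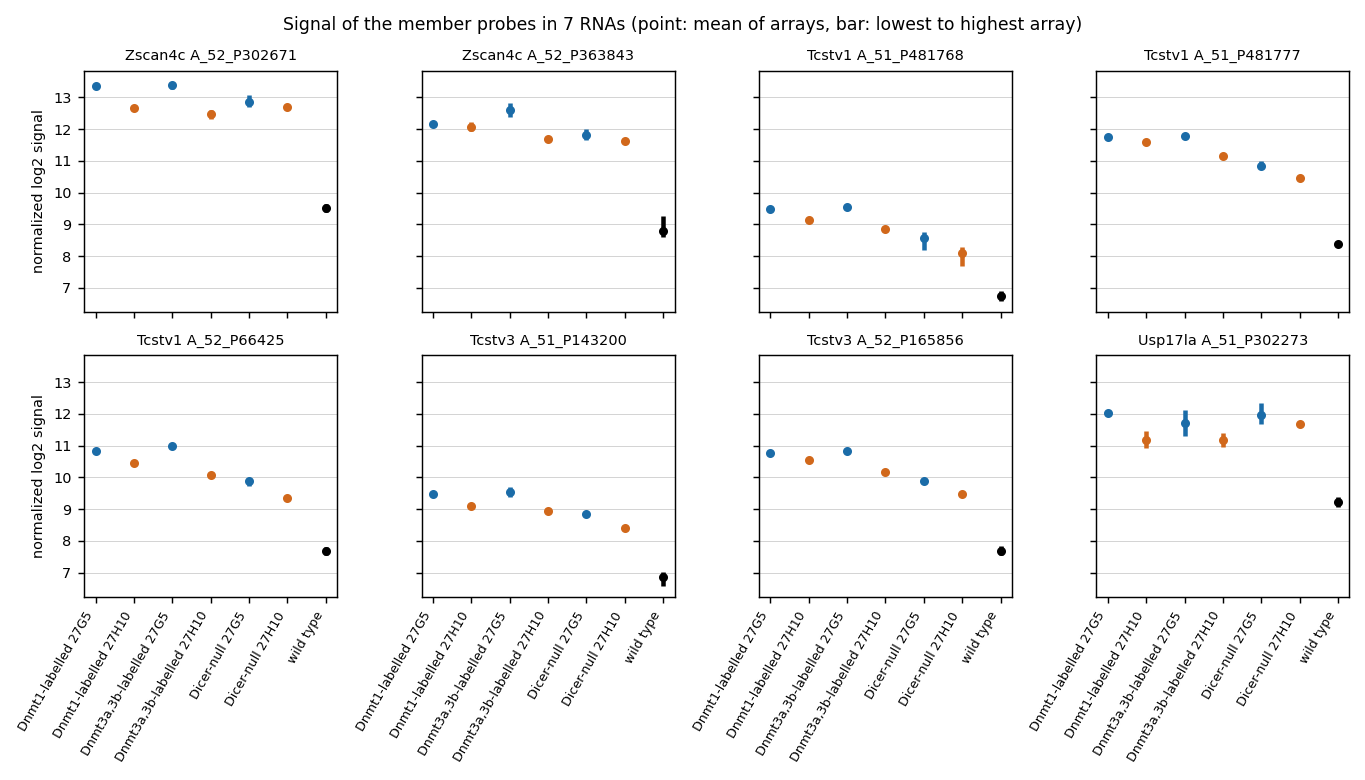
Normalized log2 signal (y axis) of each member probe in the 7 RNAs (x axis); points are means over arrays and bars run from the lowest to the highest array. Wild type lies lowest in every panel, as the choice of the members favours, and the Tcstv probes are highest in the Dnmt-labelled 27G5 cells.

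Adding the ratios within a clone sets the Dnmt-labelled cells against wild type, as a description. Zscan4c A_52_P302671 came to 4.03 in Dnmt1-labelled and 4.06 in Dnmt3a,3b-labelled 27G5 cells, and to 3.13 and 2.98 in the same lines of 27H10. Tcstv1 A_51_P481777 came to 3.27 and 3.35 in 27G5 and to 3.18 and 2.82 in 27H10. Usp17la came to 3.04 and 2.68 in 27G5 and to 2.03 and 2.02 in 27H10. No member returned to the wild-type signal in a Dnmt-labelled line. These sums hold the ratio over wild type by which the members were chosen, so nothing is read from that.

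Of 49 other genes of the 2-cell stage or the Zscan4-positive state, 20 had a probe and 12 were tested. In Dicer-null over wild-type cells 7 of the 12 rose and 1 fell, where 20.0% of all tested probes were called higher and 19.8% lower. The median log2 ratio of the 12 was 0.57 against 0.01 over all tested probes. The list was written with earlier results of these data known, so the count is no independent test. In this comparison Zfp352 was well above background only in Dicer-null RNA. Without this gene 6 of 11 rose and 1 fell, with a median of 0.53. Usp17lb, a near copy of Usp17la, gave 1.99 in 27G5 and 1.76 in 27H10 (adjusted p = 0.000701, limma). Pramel7 and Pramel6, of a family of leucine-rich-repeat proteins of the early embryo, gave 3.31 and 1.80 in 27G5 but 1.04 and 0.58 in 27H10 (adjusted p = 0.0187 and 0.0235, limma). Pif1, a helicase that acts on telomeres, rose by 0.62. Zfp352, a 2-cell zinc finger gene, gave log2 ratios of 0.91 in 27G5 and 0.58 in 27H10 over wild type (adjusted p = 0.00627, limma). It was not well above background in wild type, so the size of these ratios is uncertain. The dimmer Zfp352 probe gave a mean of 0.25 (adjusted p = 0.0868, limma). Patl2, an RNA-binding protein of oocytes, fell by 0.57. Without clone 27G5 in this comparison 1 of the 12 passed, without 27H10 5 passed, and with shared RNAs modelled 1 passed.

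Probes of a gene differed on this list. Its tests used the brightest probe, and for Gm5662 that probe gave 0.25 (adjusted p = 0.193, limma) where its dimmer probe A_51_P514161 gave 2.43 in 27G5 and 2.01 in 27H10 cells over wild type. AF067063 gave 0.15 with the brightest probe, and with A_52_P597818 1.31 and 0.89 in Dicer-null 27G5 and 27H10 over wild type, 0.75 in Dnmt1-labelled and 0.60 in Dnmt3a,3b-labelled over Dicer-null cells (adjusted p = 0.00126, 0.0111 and 0.0195, limma). These dimmer probes were singled out after their values were seen. In the Dnmt comparisons 0 of the 12 genes passed in limma, with 4 and 5 at an unadjusted p under 0.05, where 37.9% and 37.8% of all probes had one, and the scanner software's ratio called 2 of 12 in each. Pramel7 stood at -1.32 and -1.50 in Dnmt1-labelled and -2.07 and -1.21 in Dnmt3a,3b-labelled 27G5 and 27H10 cells (adjusted p = 0.0993 and 0.0687, limma).

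**Figure D4:**
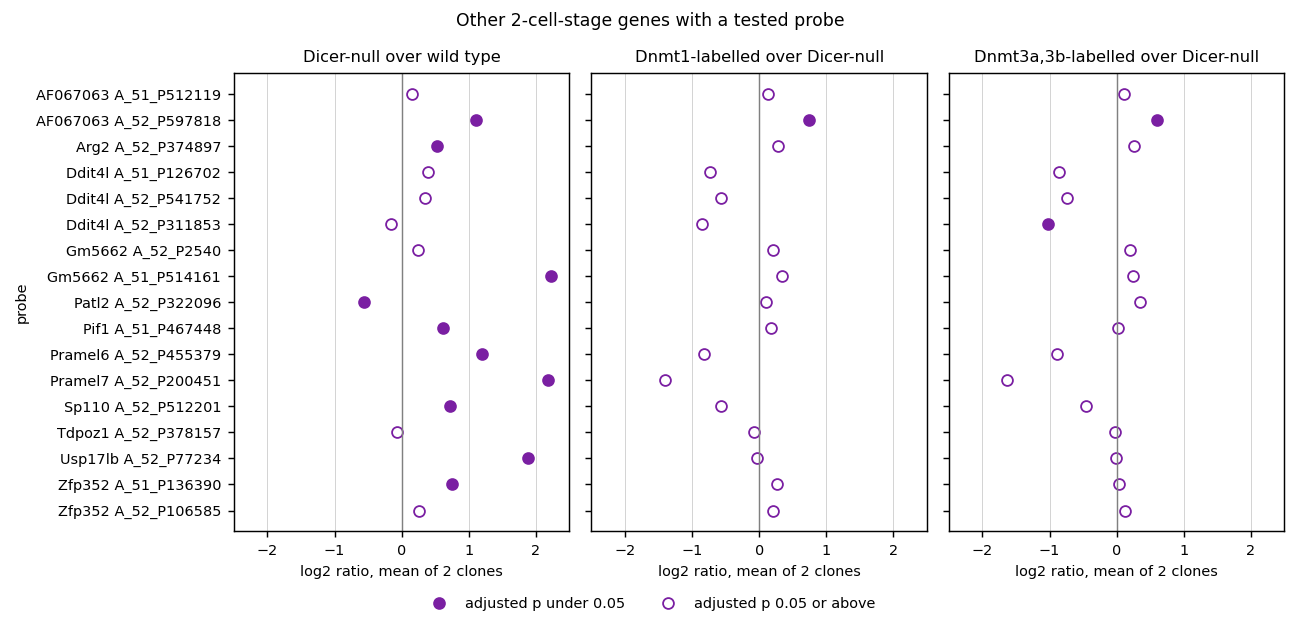
Mean log2 ratio (x axis) of every tested probe of 12 other 2-cell-stage genes (y axis) in the 3 comparisons; filled points have an adjusted p under 0.05. Usp17lb, Pramel7 and A_51_P514161 of Gm5662 lie at 1.88, 2.18 and 2.22 in the left panel. In the other panels Pramel7 lies at -1.41 and -1.64, with open points, while Usp17lb and A_51_P514161 lie between -0.03 and 0.34.

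Genes known to hold the 2-cell program down moved in both directions. Of 30 repressors, 7 rose and 4 fell in Dicer-null over wild-type cells, where 20.0% of all probes rose and 19.8% fell. The histone methyltransferase Suv39h1 fell by 1.39 and Setdb1, a methyltransferase that silences retroviruses, rose by 0.89 (adjusted p = 0.000614 and 0.00241, limma). In Dnmt1-labelled cells 2 rose and 7 fell, and in Dnmt3a,3b-labelled cells 2 rose and 4 fell, where the shares over all probes were 11.6% and 11.2%, and 10.8% and 11.2%. Rif1, a telomere protein that represses Zscan4, fell by 0.98 in Dnmt1-labelled and by 1.16 in Dnmt3a,3b-labelled cells (adjusted p = 0.00310 and 0.00244, limma), and rose by 0.43 in Dicer-null over wild-type cells (adjusted p = 0.0115, limma). Suv39h1 rose by 1.02 and 0.96 in the same lines. The repressors' medians were 0.06, -0.10 and -0.06 in the 3 comparisons.

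Of 11 tested genes listed as activators, whose role was not tested here, 3 rose in Dicer-null over wild-type cells and 0 fell. Over all probes 20.0% rose and 19.8% fell there. Among the 3 was Tbx3, a T-box factor that raises Zscan4 in ES cells, by 1.73 (adjusted p = 0.000208, limma), where its dimmer probe gave 0.53. Over all probes, 11.6% rose and 11.2% fell in Dnmt1-labelled cells, and 10.8% rose and 11.2% fell in Dnmt3a,3b-labelled cells. Of the 11 genes, 4 rose and 0 fell in each Dnmt comparison. These were Gata2, Dppa3, Tet3 and Tbx3, with log2 ratios of 1.95, 1.61, 0.73 and 0.48 in Dnmt1-labelled and 1.90, 1.17, 0.75 and 0.51 in Dnmt3a,3b-labelled over Dicer-null cells. Their adjusted p lay between 0.00542 and 0.0499 in limma. The dimmer probes of Tet3 and Tbx3 gave -0.02 and 0.05 in Dnmt1-labelled and -0.09 and 0.12 in Dnmt3a,3b-labelled cells.

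Of 31 recombination genes that act at telomeres or in meiosis, 9 rose and 5 fell in Dicer-null over wild-type cells. These counts and those of the shelterin and telomerase genes stand against the shares over all probes given for the repressors. Smc1b, a meiotic cohesin subunit, rose by 3.74 and Hormad1, a protein of meiotic chromosome axes, by 2.40, while Sycp3 of the synaptonemal complex fell by 0.96 (adjusted p = 0.000183, 0.000113 and 0.00409, limma). The dimmer probe of Hormad1 gave 0.85. Msh4, among the 9 that rose, gave 0.50 (adjusted p = 0.0377, limma). It was well above background only in Dicer-null RNA there, so the size of its ratio is uncertain. Rad51c, which helps load the recombinase, rose by 0.67 in Dnmt1-labelled and 0.60 in Dnmt3a,3b-labelled cells, and Brca2 fell by 0.64 and 1.04, where its dimmer probe gave -0.06 and -0.14. The counts were 5 risen and 2 fallen in Dnmt1-labelled, and 2 risen and 3 fallen in Dnmt3a,3b-labelled cells. Of 13 genes of shelterin, the complex that caps telomeres, and of telomerase, 1 rose and 6 fell in Dicer-null cells, Nop10 and Pot1b by 0.72 and 0.50, where the dimmer Pot1b probe gave -0.09. In Dnmt1-labelled cells 1 rose and 3 fell, and in Dnmt3a,3b-labelled cells 1 rose and 2 fell, Dkc1 by 0.78 and 0.59.

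Over the 6 ratios, the 6 genes nearest to the mean of the Zscan4c probes among 15536 others were Calcoco2, Gm428, Nlrp4f, Zc3hav1, Efhc2 and Tspan1, at Euclidean distances of 0.79, 0.79, 0.81, 0.81, 0.82 and 0.85. The members themselves lay at 0.40 for each Zscan4c probe, 1.47 for Usp17la and 1.83 to 2.81 for the Tcstv probes. Calcoco2 gave 3.06 and 2.95 over wild type and 0.27 and 0.01 in Dnmt1-labelled over Dicer-null cells of 27G5 and 27H10, and its other probe had a mean of 2.94 over wild type. Nlrp4f, of a family of oocyte proteins, gave 2.93 and 2.59 over wild type. For Zc3hav1, an antiviral zinc finger protein, the other probes gave 0.35 and 2.11 over wild type against 2.90 for the probe compared.

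**Figure D5:**
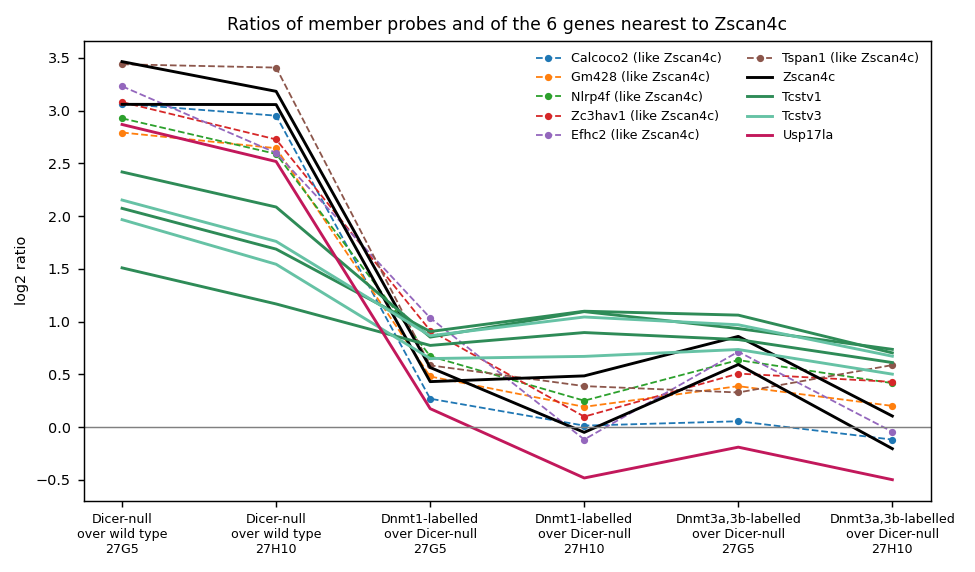
Log2 ratio (y axis) in the 3 comparisons and both clones (x axis) for the member probes (solid lines) and the 6 genes nearest to Zscan4c (dashed lines). The Tcstv probes lie below Zscan4c over wild type and at or above 0.50 in the Dnmt comparisons.

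Markers of other cell types moved in the same comparisons. Over all tested probes, 20.0% were called higher and 19.8% lower in Dicer-null over wild-type cells. These shares were 11.6% and 11.2% in Dnmt1-labelled and 10.8% and 11.2% in Dnmt3a,3b-labelled cells. ES cell markers held a summed signal of 198770 to 305111 in Dnmt1-labelled, 191903 to 295333 in Dnmt3a,3b-labelled, 180027 to 310233 in Dicer-null and 157635 to 162601 in wild-type cells, and 6 of 8 rose in Dicer-null over wild-type cells. Of 10 trophoblast markers 7 rose in Dnmt1-labelled and 8 in Dnmt3a,3b-labelled cells, while 1 rose and 6 fell in Dicer-null over wild-type cells. Their summed signal was 109109 to 275720 in Dnmt1-labelled, 106864 to 218123 in Dnmt3a,3b-labelled, 32192 to 65070 in Dicer-null and 92447 to 212810 in wild-type cells. Of 10 fibroblast markers 8 fell and 1 rose in Dicer-null over wild-type cells, Col1a1 by 4.09. Their summed signal was 46348 to 64950 in Dnmt1-labelled, 38720 to 65085 in Dnmt3a,3b-labelled, 49203 to 77210 in Dicer-null and 34179 to 50214 in wild-type cells. Lum was not among those tested. The median of this sum was higher in Dicer-null (56822 over 12 arrays) than in wild-type cells (41025 over 4 arrays). The sum and the count of calls thus point different ways. Of 7 primitive endoderm markers 3 fell and 0 rose in Dicer-null over wild-type cells, while in Dnmt1-labelled cells 1 rose and 1 fell and in Dnmt3a,3b-labelled cells 1 rose. The part of these markers in the results on the 4 genes was not tested.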

How the data were processed

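The members and gene lists were chosen with earlier results of these data known. The deposited scanner files hold, per the file headers, the mean intensity and median background intensity of each spot in both channels, made with Agilent Feature Extraction 9.5.1.1 or 9.1.3.1, and a log10 ratio after background subtraction and dye normalization. The authors' deposited value table of the series is on a log2 scale, as first-named over second-named cells (r = 0.968 to 1.00 with the turned scanner ratios); its column medians lay between -0.14 and 0.17. No per-sample column was left out (0 columns).

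Intensities were corrected with normexp (offset 50) and loess within each array in limma 3.58.1 (R 4.3.3). Separate-channel signals were scaled between arrays with Aquantile. Replicate spots were averaged per probe, each dye-swapped pair was brought to 1 direction and averaged, and the 6 ratios were fitted with 1 coefficient per comparison (3 residual degrees of freedom). A probe was tested if present on all 12 arrays and well above background on both arrays of at least 1 RNA, with calls where the p adjusted by Benjamini-Hochberg over 28818 probes lay under 0.05. Lists used each gene's brightest tested probe. Text names all member probes, up to 4 genes per list and comparison by moderated statistic, called 2-cell-stage genes beyond a log2 ratio of 1, the 6 genes nearest to Zscan4c, and the labelled genes. RefSeq accessions named 22951 probes, array symbols 9768, and 8455 stayed unnamed. Ratios of the same clone pair by cell line; their deviations correlated at -0.06, -0.13 and 0.35 between comparisons. The fit was tested on simulated data. Alternatives were other background and normalization settings, filters, left-out clones, a clone block, modelled shared RNAs and 1 probe per gene. The number of arrays limits the precision.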

Additional observations from a re-analysis of the deposited data

Results flagged for a closer look

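Zscan4c A_52_P302671 moved in opposite directions in the clones when Dnmt3a,3b-labelled cells were set against their Dicer-null parents: both arrays of 27G5 were above 0 (mean 0.593) and both arrays of 27H10 were below it (mean -0.205). The difference between the clones was not tested. The other Zscan4c probe had the same order of the clones, at 0.86 in 27G5 and 0.10 in 27H10, with all 4 arrays above 0. Among 24 sets of 4 arrays, no single array stood far from the other 3 by Dixon's criterion.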

How the results depend on the processing

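Across 12 alternatives, 5 Tcstv probes in each Dnmt comparison and 0 probes for the difference of the lines were also called with no background subtraction, the scanner software's ratio, the authors' value table, median centring, an offset of 16, no filter and the stricter filter. With the clone as a replicate block, the members' calls stayed at 5 and 5; the block changed 1 of the other 2-cell-stage genes in each Dnmt comparison (1 called, against 0), and no member's call. With shared RNAs modelled, 0 member probes were called in either Dnmt comparison and 1 of the 2-cell-stage genes in Dicer-null over wild type, and the calls over all probes were 2584, 707 and 586, against 11459, 6577 and 6331. With 1 probe per gene, 2 of 4 member genes, Tcstv1 and Tcstv3, were called in each Dnmt comparison. Of all 15540 genes, 3577 were then called in Dnmt1-labelled and 3110 in Dnmt3a,3b-labelled cells, in either direction. Without 27G5 or 27H10, 5 or 4 member probes were called in Dnmt1-labelled and 0 in Dnmt3a,3b-labelled cells, on the assumption that the lone ratio varies like the others; the calls over all probes were then 7154 or 3398 and 23 or 352, and 4708 or 4240 in Dicer-null over wild type. The 2-cell-stage genes called then ranged from 1 to 5 in Dicer-null over wild type and from 0 to 2 in Dnmt1-labelled cells. They numbered 2 and 2 in the Dnmt comparisons with the scanner software's ratio and with the authors' table, 1 and 2 with an offset of 16, and 1 in Dnmt1-labelled cells with median centring. With a clone left out, Zscan4c A_52_P302671 ranged from -0.050 (without 27G5) to 0.56 (without 27H10) in Dnmt1-labelled and from -0.20 to 0.59 in Dnmt3a,3b-labelled cells, and Usp17la from -0.48 (without 27G5) to 0.17 (without 27H10) in Dnmt1-labelled cells; none of the turned values was called in limma. The cause was not tested, except that fewer probes or ratios enter some fits. Slide could not be a block of its own, since each clone's overexpression arrays share a slide.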

Other observations

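The next tested genes in the order of RefSeq genes, on both sides of Zscan4c and Usp17la and before Tcstv1, were picked by that order and need not lie close to the member. Before Tcstv1, the kinase gene Nim1k gave log2 ratios of 0.91 and 1.07 in Dnmt1-labelled and 1.04 and 0.72 in Dnmt3a,3b-labelled over Dicer-null cells of 27G5 and 27H10 (adjusted p = 0.00479 and 0.00640, limma), and 0.53 and 0.34 in Dicer-null over wild-type cells (adjusted p = 0.0236, limma). In the same stretch AF067063, the next tested gene to Tcstv1, gave 0.19 and 0.08 in Dnmt1-labelled and 0.05 and 0.16 in Dnmt3a,3b-labelled over Dicer-null cells with its brightest probe (adjusted p = 0.248 and 0.368, limma). Its dimmer probe A_52_P597818, singled out after its values were seen, gave means of 0.75 and 0.60 in these comparisons (adjusted p = 0.0111 and 0.0195, limma). Zfp131, a zinc finger gene, fell in all 3 comparisons, by 0.53 and 0.49 in Dicer-null 27G5 and 27H10 over wild-type cells (adjusted p = 0.0113, limma). Next to Zscan4c in that order, the zinc finger gene Zik1 fell by 1.09 and 1.27 in Dicer-null 27G5 and 27H10 over wild-type cells (adjusted p = 0.000383, limma). The 6 genes next to Usp17la in that order, of which 5 are olfactory receptor genes, had a lowest adjusted p of 0.245 in limma over the 3 comparisons.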
